A study of Mus musculus with 6 samples.

Results

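The laminins and the integrins were followed through RNASeq and H3K27me3 ChIPSeq of cultured neural stem cells (NSC). The set holds 35 genes, 10 laminin chains and 25 integrin subunits, chosen by name from these 2 families and matched to the GENCODE vM21 annotation, out of 50686 gene identifiers in the count files. Earlier results of these data were known when the set was chosen. The control cultures, NSC, came from wild-type E16.5 mouse embryos. The cultures labelled NSC Bmi1Over came from E16.5 embryos of the genotype *STOPFloxBmi1;NestinCre*, in which Cre under the Nestin promoter switches on a *Bmi1* transgene, so that the transgene depends on cells that have used that promoter. The study describes its NSC as isolated from the subventricular zone and grown with EGF and FGF, either as neurospheres or as a monolayer on Matrigel, which is itself a basement membrane extract rich in laminin. Which of these forms gave the RNA is not given in the sources used here. RNASeq covered 2 cultures of each group and ChIPSeq 1 library of each, and the tumour-initiating cells of the study were not analysed here.

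Laminins are secreted heterotrimers of an alpha, a beta and a gamma chain that polymerise into the sheet of the basement membrane, where nidogens and perlecan tie them to type IV collagen. Integrins are receptors of the cell surface, each an alpha and a beta subunit, and the pairing sets the ligand: laminin, collagen, or proteins such as fibronectin and vitronectin that are recognised through an RGD motif. In the developing brain, radial glia attach to the pial basement membrane through laminin and its integrin receptors, and neural stem cells are often grown and enriched on laminin.

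The first measurement was the targeted gene. *Bmi1*, the Polycomb repressive complex subunit named in the labels, was counted at 133 and 124 CPM in NSC and at 119 and 113 CPM in the libraries labelled NSC Bmi1Over, a log2 fold change of -0.15 with an adjusted p of 0.463. The label was therefore not visible in the total *Bmi1* count, and the directions below are those of the libraries as labelled. CPM is the count of a gene scaled to the TMM-normalised size of its library. Depth ran from 18112100 to 61353076 reads counted on genes per library, both extremes lying in the group labelled NSC Bmi1Over. The neural stem cell markers *Nes* and *Sox2* were present throughout, *Nes* at 915 to 1148 CPM with overlapping groups and *Sox2* at 260 and 216 CPM in NSC and 179 and 177 CPM in the other group. Of the 12 stem cell markers 0 passed the test, 7 were lower in both libraries labelled NSC Bmi1Over and 2 were higher in both, beside 30% and 29% of all tested genes, and their median log2 fold change was -0.21. With 2 cultures a group, an exact permutation test of a single gene could not give a two-sided p below 0.333, so the adjusted p values come from edgeR's quasi-likelihood test, which pools the spread over all 15521 tested genes.

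The sequences on which the later results turn are the upstream stretches of the members that passed the test, or that held a promoter peak in both lists, and peaks found in both lists. RefSeq windows of 250 bases before a start were matched for 23 of the 35 members. *Lama4* had no match, and the window given for *Itga9* lies at an internal start and is not shown. The upstream stretches end at the last base before the annotated gene, except that of *Itga8*, which ends a little short of it, and the peaks are given whole. All are written 5′ to 3′ on the strand of the gene from GRCm38.p6, with CpG dinucleotides in capitals. CpG was searched because H3K27me3 in mammals is typically found at CpG-rich promoters.
*Lamb2* (chr9:108479612-108479735, plus strand): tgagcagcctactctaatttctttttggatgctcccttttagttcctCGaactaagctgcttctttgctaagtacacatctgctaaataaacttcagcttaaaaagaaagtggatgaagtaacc
*Itga2* (chr13:114932101-114932350, minus strand): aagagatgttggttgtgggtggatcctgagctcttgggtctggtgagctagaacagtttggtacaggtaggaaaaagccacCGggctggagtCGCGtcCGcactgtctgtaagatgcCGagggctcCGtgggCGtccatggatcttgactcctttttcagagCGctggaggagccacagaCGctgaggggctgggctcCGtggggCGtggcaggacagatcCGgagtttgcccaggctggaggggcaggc
*Itga8* (chr2:12301945-12302194, minus strand): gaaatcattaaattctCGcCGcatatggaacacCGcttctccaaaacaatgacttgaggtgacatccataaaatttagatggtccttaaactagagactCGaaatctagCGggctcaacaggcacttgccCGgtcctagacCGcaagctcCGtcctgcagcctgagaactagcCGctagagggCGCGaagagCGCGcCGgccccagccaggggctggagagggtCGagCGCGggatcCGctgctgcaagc
*Itgb5* (chr16:33829415-33829664, plus strand): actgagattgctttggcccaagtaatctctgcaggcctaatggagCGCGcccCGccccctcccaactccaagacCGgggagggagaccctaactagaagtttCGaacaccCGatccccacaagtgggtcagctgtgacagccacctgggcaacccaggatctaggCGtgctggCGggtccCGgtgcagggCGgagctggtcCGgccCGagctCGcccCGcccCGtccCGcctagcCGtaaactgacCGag
*Itga3* (chr11:95076802-95076964, minus strand): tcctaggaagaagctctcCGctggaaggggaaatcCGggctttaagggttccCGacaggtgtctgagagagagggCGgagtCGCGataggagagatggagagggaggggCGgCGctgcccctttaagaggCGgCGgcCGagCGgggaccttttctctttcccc
*Itga3* peak (chr11:95077259-95077468, minus strand): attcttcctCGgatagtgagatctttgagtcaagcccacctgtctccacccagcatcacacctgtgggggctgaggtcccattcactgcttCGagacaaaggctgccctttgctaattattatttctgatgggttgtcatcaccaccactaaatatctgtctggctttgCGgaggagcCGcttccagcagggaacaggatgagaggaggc
*Itga9* intronic peak (chr9:118649117-118649316, plus strand): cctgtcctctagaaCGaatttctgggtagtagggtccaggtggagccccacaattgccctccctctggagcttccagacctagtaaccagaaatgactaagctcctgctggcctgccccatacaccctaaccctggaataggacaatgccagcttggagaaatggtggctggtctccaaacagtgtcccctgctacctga

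CpG numbers differed widely between the stretches. The *Lamb2* stretch of 124 bases held 1 CpG, and its 37.9% of G and C was the lowest of the 5 upstream stretches. *Itga8* and *Itgb5* held 18 each in 250 bases, *Itga2* held 12 in 250 bases, and *Itga3* held 12 in 163 bases. Over all 32851 RefSeq upstream windows of 250 bases the median was 6 CpG, 92.1% held at least 1 and 37.8% held at least 10. Before they were cut at the annotated gene, the 250-base windows of *Lamb2* and *Itga3* held 3 and 22 CpG. The *Itga3* and *Itga9* peaks, which lie outside those stretches, held 4 CpG in 210 bases and 1 in 200 bases.

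Most laminin and integrin transcripts were more abundant in the libraries labelled NSC Bmi1Over, and 6 passed the test, all of them higher: *Lama4*, *Lamb2*, *Itga9*, *Itga2*, *Itga8* and *Itgb5*. Of the 35 members, 27 had enough reads to be tested. Over all tested genes, 2.15% were called in either direction, 2.03% higher and 0.122% lower. The median log2 fold change of the tested members was 0.68, beside -0.01 over all tested genes. In 22 of the 27 both libraries labelled NSC Bmi1Over were above both NSC libraries, which held for 29% of all tested genes, and in 1, *Itgb8*, both were below, which held for 30%. The members, and the partner lists below, were chosen with earlier results of these data known. Their contrasts with all tested genes are therefore descriptions only. A further 7 members had adjusted p values from 0.0537 to 0.0973 and are given as values only. In such bulk libraries, fewer cells of a type and less RNA per cell cannot be told apart. NSC replicate 2 was above NSC replicate 1 in 17 of the 22 members that were higher in both libraries labelled NSC Bmi1Over, so the control cultures also differed among themselves in most of the family, and without NSC replicate 1 only *Lama4*, *Lamb2* and *Itga9* passed the test.

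**Figure D1:**
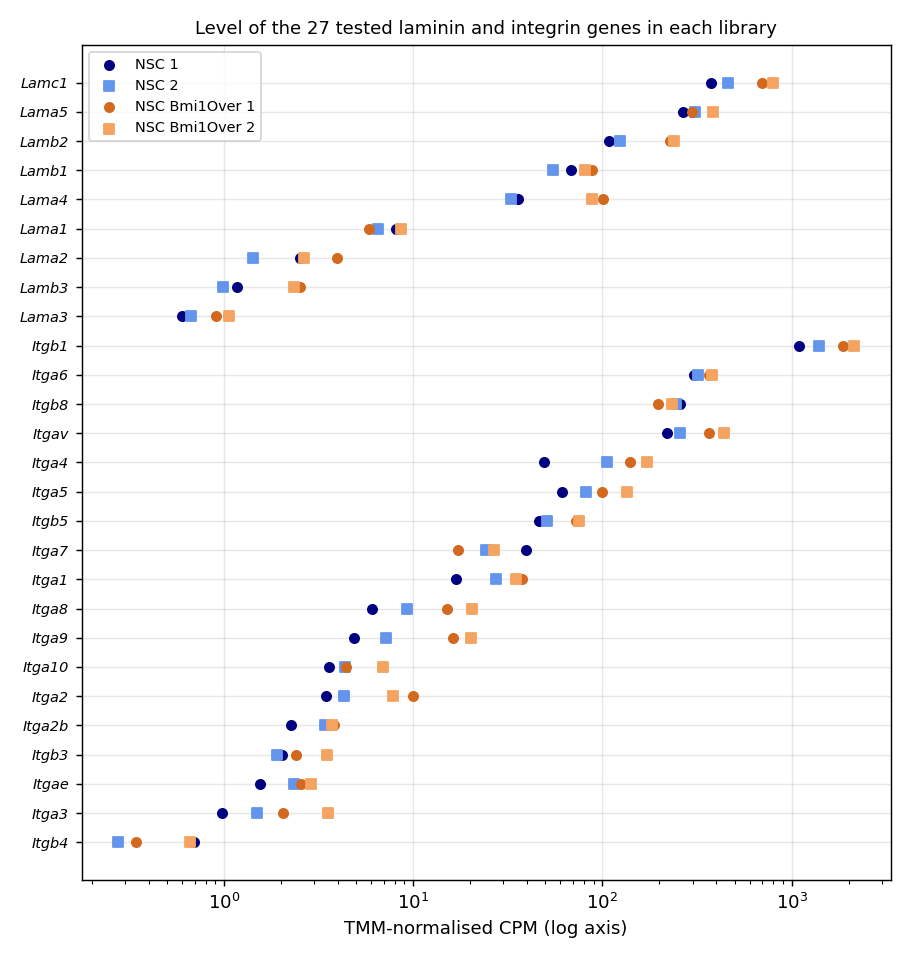
Level of each of the 27 tested members in each of the 4 libraries, in TMM-normalised CPM on a log axis, laminin chains above integrin subunits; each point is 1 library. In most rows both orange points (libraries labelled NSC Bmi1Over) lie to the right of both blue points (NSC), from *Itgb1*, at 1089 to 2127 CPM, down to *Lama3*, at 0.602 to 1.07 CPM.

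Among the laminin chains, *Lama4* and *Lamb2* rose. *Lama4* encodes the alpha 4 chain, known from vessels, nerve and muscle. It was counted at 35.6 and 32.8 CPM in NSC and at 101 and 87.8 CPM in the libraries labelled NSC Bmi1Over. Both of the latter were above both controls, a log2 fold change of 1.46 (SE 0.13, n = 2 against 2, adjusted p = 0.0039). *Lamb2*, the beta 2 chain found at synapses and in the glomerulus and retina, was at 108 and 124 CPM in NSC and at 229 and 238 CPM in the other group. Its log2 fold change was 1.01 (SE 0.14, adjusted p = 0.0179), with group means of 116 ± 11.4 and 233 ± 6.84 CPM (SD, n = 2). *Lama4* lies at chr10:38965515-39110188 and *Lamb2* at chr9:108479736-108490530 of GRCm38, and neither shares exon sequence with another annotated gene.

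*Lamc1*, the gamma chain common to most laminins, was the most abundant laminin transcript per length. It was counted at 373 and 460 CPM in NSC and at 695 and 793 CPM in the other group, without overlap, but its log2 fold change of 0.84 missed the threshold (adjusted p = 0.0537). *Lama5*, the alpha chain of the main embryonic laminins, was at 266 and 308 CPM in NSC and at 298 and 384 CPM in the other group. Here the groups overlapped and the log2 fold change was 0.25 (adjusted p = 0.395). *Lamb1*, the beta chain of the first laminins of the embryo, was at 68.4 and 55.1 CPM against 88.4 and 80.9 CPM, without overlap and with an adjusted p of 0.105.

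The remaining chains were scarce. *Lama1*, the alpha chain of early basement membranes, was at 5.83 to 8.61 CPM with overlapping groups and a log2 fold change of 0.00 (adjusted p = 0.998). *Lama2*, the chain of the muscle basement membrane, was at 1.42 to 3.94 CPM (log2 fold change 0.68, adjusted p = 0.261). The epithelial chains *Lama3* and *Lamb3* were at 0.602 to 1.07 CPM and at 0.989 to 2.51 CPM, with log2 fold changes of 0.67 (adjusted p = 0.268) and 1.15 (adjusted p = 0.0691). *Lamc3* had 4 and 2 reads in NSC and 1 and 11 in the other group and was not tested. Summed over the 10 chains, laminin transcripts made up 864 and 990 CPM in NSC and 1424 and 1599 CPM in the other group.

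**Figure D2:**
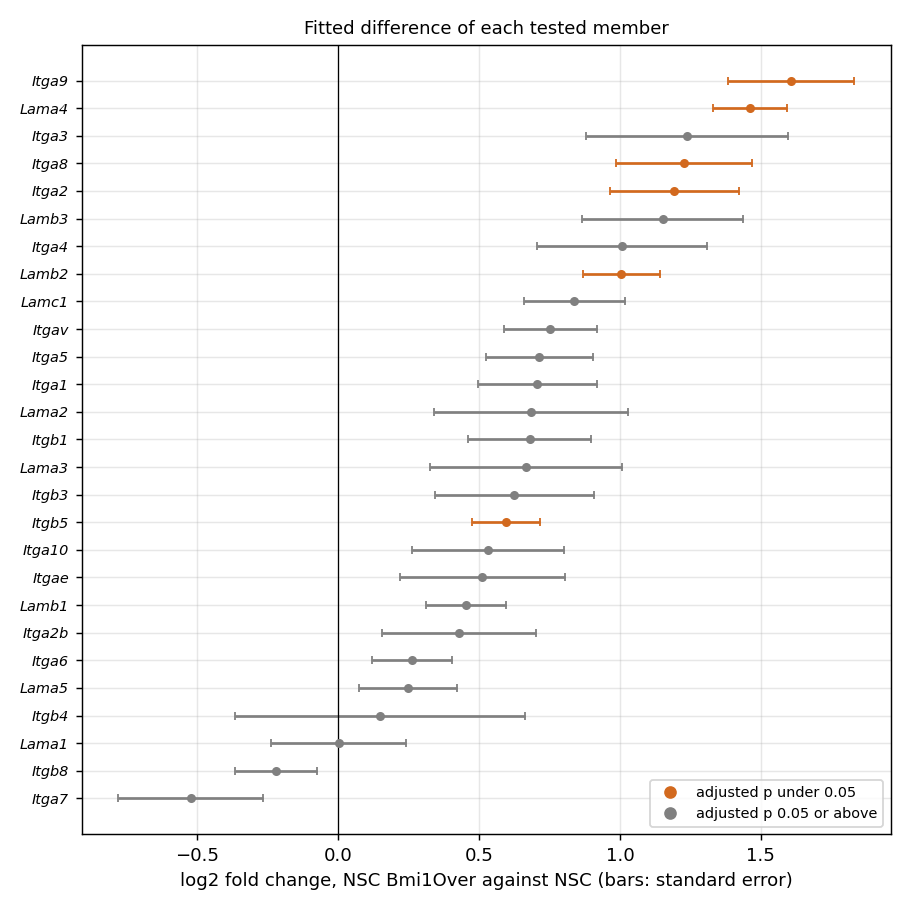
Log2 fold change of each of the 27 tested members, libraries labelled NSC Bmi1Over minus NSC, with its standard error as a bar; orange points passed edgeR's test at an adjusted p under 0.05 and grey points did not. The 6 orange points all lie above 0, from *Itgb5* at 0.60 to *Itga9* at 1.61.

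None of the 5 integrin subunits of laminin receptors passed edgeR's test, although 2 of them had an unadjusted p under 0.05, as did 3760 of all 15521 tested genes. *Itgb1*, the beta subunit shared by most matrix receptors, was the highest member per length, at 1089 and 1398 CPM in NSC and at 1856 and 2127 CPM in the other group. The groups did not overlap, and the log2 fold change was 0.68 (adjusted p = 0.111). *Itga6*, the laminin receptor subunit used to mark neural stem cells, was at 303 and 318 CPM against 366 and 379 CPM, a log2 fold change of 0.26 (adjusted p = 0.290). *Itga7*, the laminin receptor subunit of muscle, had a log2 fold change of -0.52 with overlapping groups, at 39.5 and 24.2 CPM in NSC and 17.3 and 26.6 CPM in the other group (adjusted p = 0.251). With edgeR and no filter on low counts *Itga7* was called lower (adjusted p = 0.0118). Its log2 fold change ran from -0.89 without NSC Bmi1Over replicate 2 to -0.13 without NSC replicate 1. *Itga3*, whose heterodimer with *Itgb1* binds laminin in epithelia and in migrating neurons, was at 0.982 and 1.50 CPM against 2.06 and 3.55 CPM. The *Itga3* groups did not overlap, and the log2 fold change was 1.24 (adjusted p = 0.0934). *Itgb4*, the beta subunit of hemidesmosomes, stayed below 1 CPM everywhere.

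Of the 8 subunits of RGD-binding receptors, 7 were tested, and *Itga8* and *Itgb5* rose. *Itga8*, which pairs with *Itgb1* to bind nephronectin, was at 6.08 and 9.30 CPM in NSC and at 15.0 and 20.5 CPM in the other group. Each of the latter exceeded both controls, with a log2 fold change of 1.23 (SE 0.24, adjusted p = 0.0451). Of its exon length, 5.05% is shared with an antisense gene, and reads there are ambiguous in the unstranded counts. *Itgb5*, which pairs with *Itgav* to bind vitronectin, was at 46.5 and 50.9 CPM in NSC and 72.3 and 75.0 CPM in the other group, without overlap. The log2 fold change of *Itgb5* was 0.60 (SE 0.12, adjusted p = 0.0476). Both calls were lost with DESeq2's size factors, without NSC replicate 1 and without NSC Bmi1Over replicate 2, and that of *Itgb5* also with library size alone.

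*Itgav*, the alpha subunit of the vitronectin and TGF-beta-activating receptors, was at 221 and 257 CPM against 365 and 440 CPM. *Itga5*, the fibronectin receptor subunit, was at 61.2 and 82.1 CPM against 99.3 and 135 CPM. Both pairs of groups were free of overlap and both missed the threshold, with log2 fold changes of 0.75 (adjusted p = 0.0559) and 0.71 (adjusted p = 0.0793). *Itgb8*, which with *Itgav* activates latent TGF-beta in the neuroepithelium, went the other way, at 256 and 246 CPM in NSC and 198 and 233 CPM in the other group. Its log2 fold change was -0.22 with an adjusted p of 0.368. The platelet pair *Itga2b* and *Itgb3* were at 1.90 to 3.83 CPM, with adjusted p values of 0.355 and 0.219. *Itgb6*, the epithelial subunit, had 1 read in 1 library and none in the others.

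Among the collagen receptor subunits, *Itga2* rose. It was counted at 3.45 and 4.31 CPM in NSC and at 10.0 and 7.86 CPM in the other group, a log2 fold change of 1.19 (SE 0.23, adjusted p = 0.0440). Both raised libraries were above both controls, and the call was lost without NSC replicate 1. *Itga1*, the other widespread collagen receptor subunit, was at 16.9 and 27.5 CPM against 37.5 and 34.7 CPM (log2 fold change 0.71, adjusted p = 0.0967). *Itga10*, the cartilage subunit, was at 3.61 to 6.91 CPM with an adjusted p of 0.263, but 33.5% of its exon length is shared with another annotated gene on the same strand, so its count is uncertain. *Itga11*, the fibroblast subunit, had 6 to 28 reads per library and was not tested.

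*Itga9* rose. It encodes the subunit that pairs with *Itgb1* to bind tenascin C and osteopontin, and it was at 4.88 and 7.20 CPM in NSC and at 16.3 and 20.1 CPM in the other group. The groups did not overlap, and the log2 fold change was 1.61 (SE 0.22, adjusted p = 0.0189). *Itga4*, its closest relative, which binds fibronectin and VCAM1, differed widely between the control cultures, at 49.2 and 106 CPM, and was at 139 and 172 CPM in the other group. Its log2 fold change of 1.01 had an adjusted p of 0.0973. Over the left-out cultures, the log2 fold change of *Itga4* ran from 0.551 without NSC replicate 1 to 1.66 without NSC replicate 2. *Itgae*, the lymphocyte receptor subunit for E-cadherin, was at 1.55 to 2.89 CPM (adjusted p = 0.309).

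The subunits of leukocyte receptors were at or near the detection limit. *Itgam* and *Itgax*, the alpha subunits of the complement receptors of myeloid cells, had 0 reads in all 4 libraries, and 3 reads would have been 0.0525 to 0.171 CPM. *Itgal* had 3 to 20 reads, and the beta subunits *Itgb2* and *Itgb7* had 0 to 7 and 2 to 14 reads. For *Itgam* the count covers only part of the gene, since 68.7% of its exon length is shared with another gene on the same strand and reads there are ambiguous.

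Levels between genes were compared only per length, as CPM per kilobase of exon. Laminin alpha chains summed to 27.4 and 30.6 in NSC and to 35.5 and 42.2 in the other group, beta chains to 24.9 and 26.2 against 46.9 and 47.7, and gamma chains to 45.1 and 55.6 against 84.0 and 95.9. The beta and gamma sums of the 2 groups were thus further apart than the alpha sums. *Lama5* gave most of the alpha transcript in every library, 85.4% and 88.4% in NSC and 73.7% and 80.0% in the other group. *Lama4* gave 10.8% and 8.88% against 23.7% and 17.2%, and *Lamb2* gave 71.6% and 78.2% of the beta chains against 80.2% and 82.2%. The order of the alpha chains, *Lama5* before *Lama4* before *Lama1*, was the same in all 4 libraries.

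Integrin beta transcripts exceeded integrin alpha transcripts in every library, with sums of 304 and 380 against 79.5 and 93.1 in NSC and of 493 and 564 against 117 and 138 in the other group. *Itgb1* made up 87.8% and 90.2% of the beta transcript in NSC and 92.2% and 92.4% in the other group, and *Itgb8* made up 7.63% and 5.86% in NSC and 3.62% and 3.74% in the other group. *Itga6* led the alpha subunits in all 4 libraries, with 42.3% and 37.9% against 34.7% and 30.5%, followed by *Itgav* with 25.8% and 25.7% against 29.1% and 29.7%. In NSC Bmi1Over replicate 2 the shares of *Itga6* and *Itgav* were close to each other. *Itga5* came next in each library, at 15.6% to 19.9%. These shares describe transcripts, with no test.

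**Figure D3:**
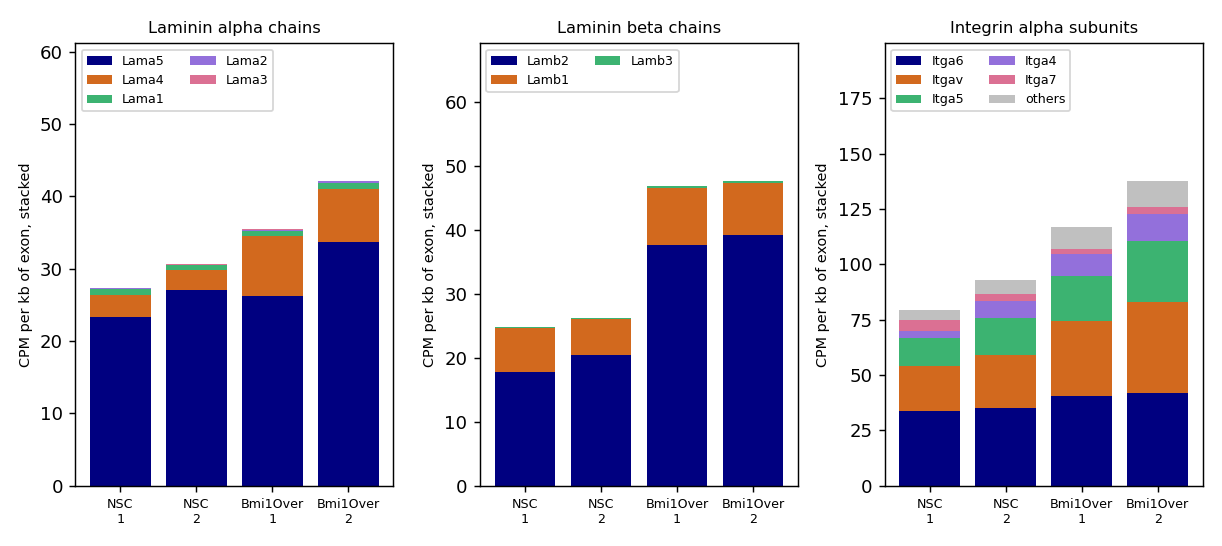
Stacked CPM per kilobase of exon of the laminin alpha chains, laminin beta chains and integrin alpha subunits in each of the 4 libraries, 1 bar per library. *Lama5*, *Lamb2* and *Itga6* are the lowest and thickest segment of every bar, and the laminin beta bars of NSC reach 24.9 and 26.2 while those of the other group reach 46.9 and 47.7.

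The proteins that build the basement membrane with laminin, or bind laminin outside the integrin family, were read from the same fit. This list too was chosen with earlier results of these data known. All 20 listed genes were tested and 10 rose, with a median log2 fold change of 0.79 and none called lower, beside 2.03% called higher, 0.122% called lower and a median of -0.01 over all tested genes. Over all 4 lists of partner genes, the 16 calls became fewer without NSC Bmi1Over replicate 2 or without NSC replicate 1. They became more without NSC replicate 2 or without NSC Bmi1Over replicate 1, with some genes then called lower. The share called over all genes fell and rose in the same fits. *Col4a1* and *Col4a2*, the chains of the common type IV collagen, had log2 fold changes of 0.84 (adjusted p = 0.029) and 1.10 (adjusted p = 0.008). The nidogens *Nid1* and *Nid2* and the perlecan gene *Hspg2*, which link laminin to that collagen, had log2 fold changes of 0.78, 0.79 and 0.78. *Sparc*, a collagen-binding glycoprotein, was at 163 and 173 CPM in NSC and at 420 and 408 CPM in the other group, and its calcium-binding relative *Smoc2* was below 5 CPM. *Fras1*, which joins epithelia to basement membrane, the laminin receptor *Bcam* and the syndecan *Sdc2* completed the 10. *Agrn* and *Dag1*, agrin and the dystroglycan receptor that binds it and laminin, were at 996 to 1917 CPM and 709 to 1245 CPM, both without overlap, and did not pass (adjusted p = 0.146 and 0.127).

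Other integrin ligands were called in 4 of 20 tested genes, all higher, beside 2.03% of all tested genes, with a median of 0.61. *Ccn2*, a matricellular protein, had the largest difference, from 0.444 and 0.712 CPM in NSC to 7.08 and 9.55 CPM. *Spp1*, osteopontin and a ligand of *Itga9*, was at 3.04 and 5.14 CPM against 9.54 and 22.1 CPM, and *Thbs2* and *Fbn1*, a thrombospondin and the microfibril protein fibrillin, were the other called ligands. *Fn1*, fibronectin, did not pass, at 118 and 89.2 CPM against 138 and 175 CPM (adjusted p = 0.095).

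On the intracellular side of adhesion the counts were near those of all tested genes. Of 39 tested activators and focal adhesion proteins, which couple the integrin tail to actin, 1 was called: *Kank2*, a talin-binding protein, at 11.9 and 13.6 CPM in NSC and 29.3 and 24.3 CPM in the other group. The median log2 fold change of these 39 was 0.11, and the groups did not overlap in 11 genes that were higher and 11 that were lower in the libraries labelled NSC Bmi1Over, beside the 29% and 30% given for all tested genes. Of the 11 tetraspanins and other membrane partners, 1 was called higher, *Cd44*, the hyaluronan receptor, beside 2.03% of all tested genes. *Cd44* was at 52.9 and 60.5 CPM against 88.4 and 101 CPM. The median of the 11 was 0.42, and 7 were higher and 0 lower without overlap, beside the same 29% and 30%.

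**Figure D4:**
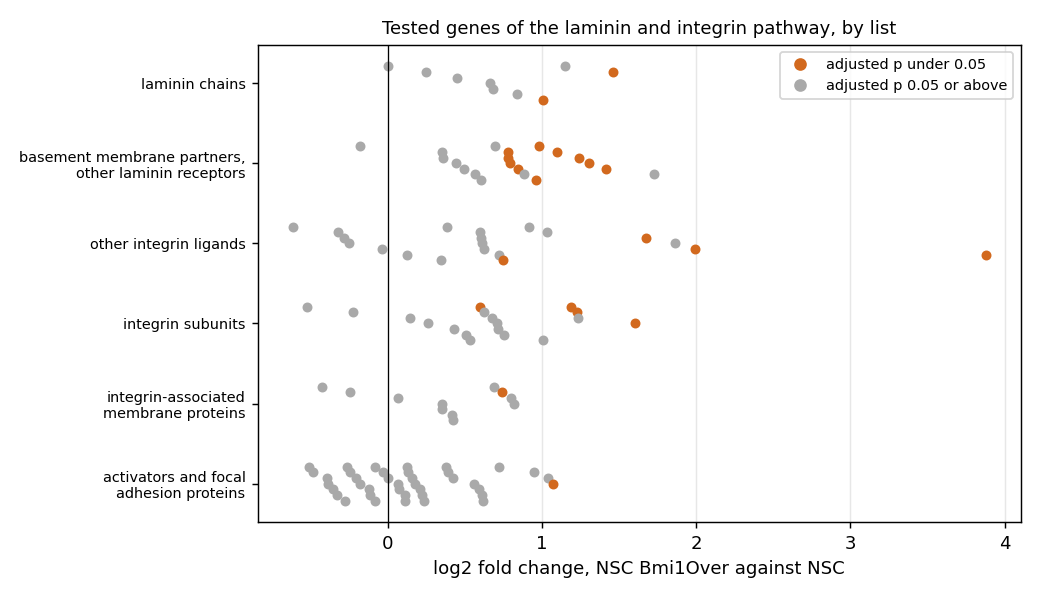
Log2 fold changes of the tested laminin chains, integrin subunits and 4 lists of partner genes, libraries labelled NSC Bmi1Over minus NSC, 1 point per gene; orange points passed edgeR's test at an adjusted p under 0.05. The 10 orange points of the basement membrane row all lie above 0, and the activators and focal adhesion proteins spread to both sides of it, with 1 orange point.

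Markers of other cell types that also make laminins or integrins were read in the same libraries. The 8 endothelial markers summed to 6.34 and 7.52 CPM in NSC and to 9.54 and 11.04 CPM in the other group, with 0 of 5 tested called, *Cldn5* at 0 in all libraries and *Cdh5* and *Pecam1* at or below 0.42 CPM. Of those 5, *Emcn*, *Tek*, *Kdr* and *Egfl7* were higher in both libraries labelled NSC Bmi1Over, with log2 fold changes of 1.77 (adjusted p = 0.068), 0.86, 0.57 and 0.47 and none above 3.10 CPM, and the median of the 5 was 0.57. The 6 markers of pericytes and smooth muscle summed to 1.82 to 3.23 CPM and the 8 of mesenchymal cells to 47.6 and 45.0 CPM against 30.6 and 40.3 CPM, with none called. Of the mesenchymal sum *Prrx1* alone made up 46.1 and 43.5 CPM against 28.8 and 39.3 CPM, and each of the other 7 markers was below 1 CPM in every library. The 8 microglial markers summed to 1.33 and 1.98 CPM against 2.46 and 3.17 CPM. The 8 erythroid and megakaryocyte markers summed to 1.46 and 1.70 CPM against 4.46 and 4.48 CPM, with *Pf4*, 1 of 3 tested, called higher. Of the ependymal and choroid plexus markers, *Folr1* was called higher, at 0.982 and 0.791 CPM in NSC and 5.94 and 4.55 CPM in the other group, and the 6 markers of that list summed to 11.7 and 12.5 CPM against 20.1 and 14.9 CPM. The 9 neuronal markers summed to 988 and 956 CPM in NSC and to 1016 and 934 CPM in the other group. Of the 7 tested, *Syt1* was called higher (log2 fold change 2.18, adjusted p = 0.043), 5 were below 0, *Gad1* and *Snap25* without overlap, and the median was -0.21. The 6 astrocyte markers summed to 450 and 416 CPM against 369 and 441 CPM, with *Aldh1l1* called lower (log2 fold change -0.86, adjusted p = 0.044) and a median of -0.17. Whether such cells, or the lower stem cell markers given above, contribute to the differences of the laminins and integrins was not tested.

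H3K27me3, the mark laid down by Polycomb repressive complex 2, was read from 1 deposited peak list per group, so these values carry no test, and no depth stands in the lists themselves. The methods of the study give unequal read totals per condition, with the larger NSC total above both totals of NSC Bmi1Over, and say that the weakest samples were left out but not which total belongs to a retained library. The part of depth in the difference between the lists was not tested. A promoter peak was a peak within 5 kb of any annotated start. In NSC 5 of the 35 members had one (14.3%), *Lama1*, *Lamc3*, *Itga3*, *Itgb5* and *Itga11*, where 8.87% of protein-coding genes did. In NSC Bmi1Over only *Itga3* had one (2.86%), where 4.41% of protein-coding genes did, so the lists also differ in size over all genes. Of the 6 called members, *Itgb5* was the only one with a promoter peak, in NSC alone, and that peak of 236 bp lies in an intron 112853 bp past the gene start, within 5 kb but not within 1 kb of an internal start.

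*Itga3* carried the most extensive mark among the members in NSC. NSC had 4 peaks there, the longest of 1210 bp spanning an annotated start with a fold enrichment of 4.96 over background, and the upstream stretch printed above lies between that peak and the next. NSC Bmi1Over had a single peak of 210 bp, printed above, which ends at -458 bp from the gene start with a fold enrichment of 6.22, and it lies within an NSC peak. *Itga3* RNA was low in both groups. *Lama1*, *Lamc3* and *Itga11*, the other members marked in NSC, were also scarce or untested, whereas *Itgb5* was not.

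*Itga9* had no promoter peak, but both lists held 3 short peaks in its introns, starting between 39738 and 48160 bp past the gene start, with fold enrichments of 3.53 to 6.02. The stretch printed above is one of 2 that the lists share by position. *Lama4*, *Lamb2*, *Itga2* and *Itga8* had no peak in either list by the 5 kb window or in the gene body. Of the 94 partner genes, 5 had a promoter peak in NSC and 3 in NSC Bmi1Over, where 8.87% and 4.41% of protein-coding genes did. *Smoc2* held 6 in NSC and 2 in NSC Bmi1Over, *Tns1* held 5 and 0, *Fermt1* 3 and 3, *Tgfb1* 2 and 1, and *Frem2* 1 and 0.

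**Figure D5:**
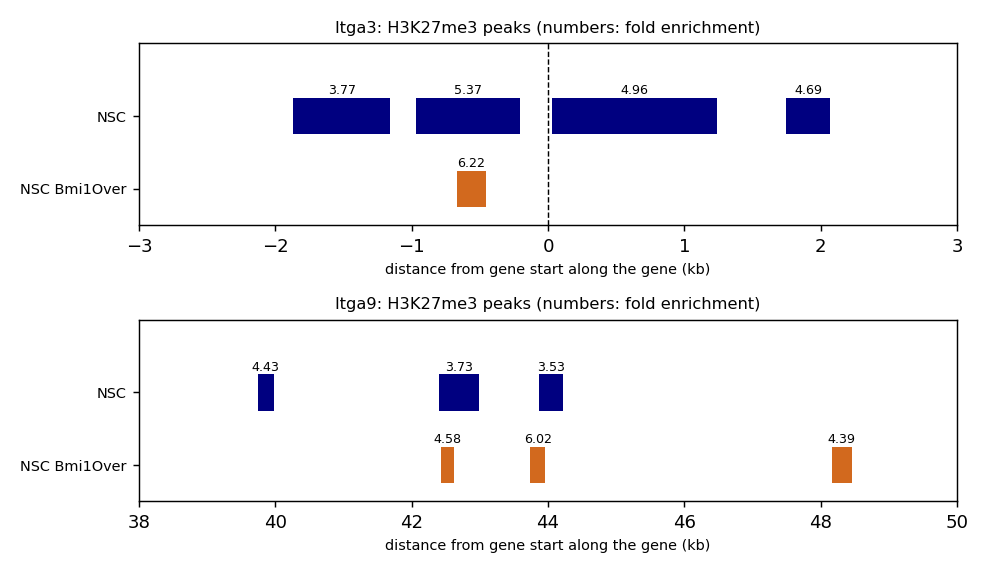
H3K27me3 peaks at *Itga3* and *Itga9*, the members with peaks in both lists, drawn to scale by distance from the gene start in kb, with the fold enrichment above each peak, for NSC and NSC Bmi1Over, 1 library each. *Itga3* has 4 peaks in NSC and 1 in NSC Bmi1Over, and *Itga9* has 3 in each.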

How the data were processed

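RNASeq counts came from 2 cultures of NSC and 2 labelled NSC Bmi1Over, and H3K27me3 peaks from 1 library each. The authors trimmed reads with Trim Galore, aligned RNASeq reads to mm10 with STAR and deposited raw read counts per gene. For ChIPSeq, the authors aligned reads with Bowtie2 2.3.4 and called broad peaks with MACS2 on single libraries, and the deposited lists give a fold enrichment (a ratio over background) and the −log10 of the p-value and q-value. STAR and MACS2 versions are not given in the sources used here.

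Unstranded counts were tested with edgeR 4.0.16 under R 4.3.3 (TMM, filterByExpr, quasi-likelihood F-test, Benjamini-Hochberg adjustment over 15521 genes, threshold 0.05), after the methods of the study but without its biotype filtering. Counted reads were 65.9% to 72.2% of the total per library, and the rest stayed out. Standard errors were derived from the F statistics. P-values set the difference between the groups against the spread between these cultures, pooled over genes. A count of 0 allows up to 3 reads, and this limit covers counting error only. Lengths and starts are those of GENCODE vM21, and 50462 identifiers matched it. Sequences are RefSeq's, GRCm38.p6.

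All 35 members are named, with the partner genes at an adjusted p under 0.05 and others of those lists singled out after their values were seen (*Agrn*, *Dag1*, *Fn1* and those with promoter peaks), and the markers *Nes*, *Sox2*, *Prrx1*, *Cldn5*, *Cdh5*, *Pecam1*, *Emcn*, *Tek*, *Kdr*, *Egfl7*, *Pf4*, *Folr1*, *Syt1*, *Gad1*, *Snap25* and *Aldh1l1*, likewise. The members and lists were chosen with earlier results of these data known. The marker lists of neurons, astrocytes, oligodendrocyte lineage and ependymal and choroid plexus cells had 1 of 7, 1 of 6, 0 of 7 and 1 of 2 tested genes called. That of erythroid cells and megakaryocytes had 1 of 3, beside 2.15% of all tested genes. Alternatives were DESeq2 1.42.0, other scalings, filters, count columns and gene sets, a replicate block, each culture left out, other peak limits, and thinning, added after seeing the data. Scripts were tested on simulated data.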

Additional observations from a re-analysis of the deposited data

How the results depend on the processing

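*Lama4*, *Lamb2* and *Itga9* were called higher in all 13 alternative settings, *Itga2* in 12, *Itga8* in 10 and *Itgb5* in 9. The 6 members and 16 partner genes called became 11 and 33 with DESeq2's Wald test and 16 and 37 with no filter on low counts, while the share called over all genes went from 2.15% to 5% and 8.25%. With the replicate number as a replicate block they became 16 and 50 (5 of the partner genes lower), with 22.3% of all genes called. The number was not treated as pairing the cultures, since neither the labels nor the study say that it marks a shared batch, and there are only 2 pairs. Replicate differences correlated positively between groups, at r = 0.235 over 15521 genes. Whether the number marks a shared batch was not tested. Leaving out each culture in turn gave 3 to 13 members and 8 to 36 partner genes, with 1.11% to 15.6% of all genes called, the fewest members without NSC replicate 1 (*Lama4*, *Lamb2*, *Itga9*), 4 without NSC Bmi1Over replicate 2 (*Lama4*, *Lamb2*, *Itga2*, *Itga9*), the most without NSC replicate 2, and 11 without NSC Bmi1Over replicate 1. *Itga7* was called lower with no filter and without NSC replicate 2. Where a culture is left out, a lone culture is assumed to vary like the other group. The log2 fold change of *Lama1*, near 0, turned to -0.0132 with DESeq2, -0.158 with library size alone, -0.0179 with no filter, -0.0129 with the block and -0.0774 when thinned, and ran from -0.33 to 0.23 over left-out cultures. *Itgb4* turned to -0.0176 with library size alone and ran from -0.54 to 0.97. Library size alone moved the median of all genes to -0.17. The cause of these moves was not tested. Members with a promoter peak in NSC fell from 5 (14.3%, beside 8.87% of protein-coding genes) to 4 in a 1 kb window (11.4% beside 6.52%, without *Itgb5*). They fell to 3 at a −log10 q of at least 3 (8.57% beside 5.77%). At a fold enrichment of at least 5, 1 was left (2.86% beside 3.09%), as for peaks of at least 1 kb (2.86% beside 3.92%). With the gene body counted, NSC had 6 (17.1% beside 10.1%). In NSC Bmi1Over the 1 member (2.86% beside 4.41%) became 0 for peaks of at least 1 kb (0% beside 1.5%). It became 2 with the gene body counted (5.71% beside 5.36%). Precision is limited by 2 cultures a group and, for scarce members, by 18112100 reads in the shallowest library.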
